A study of Equus caballus with 26 samples.

Results

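Interferon-stimulated genes are the genes that cells switch on when they sense interferon, the cytokine family released on contact with viral nucleic acid. A list of 35 of them was followed in the whole blood of endurance horses, of which 34 were found among the 24415 gene names of the equine array and were well above background on at least 3 of 26 arrays. *IFIT2* was the member that was not found by name. A member was looked up by the gene name of the scanner files, or otherwise by the gene name in the description column or in the additional tables of the study, and the brightest probe of that gene name was used. The horses were pure or half-bred Arabians entered in 160 km endurance rides, with an age of 10 ± 2 years (SEM) over the recruited cohort, and blood was drawn into RNA-preserving tubes at rest before the ride (T0) and just after its end (T1). The experimental set was 3 geldings (horses 2, 32 and 41), each sampled at T0 and at T1. The validation set held 7 other horses sampled at T0 only (3 females and 4 geldings) and 13 further horses sampled at T1 only (3 females and 10 geldings), so that T0 and T1 were different animals there. The labels name no allele or drug, there was no untreated group resting through the same hours, and per the study's methods most of its validation horses sampled at T0 later failed a veterinary check, whereas those sampled at T1 had all finished. Each level below is the log2 signal of a probe relative to the 75th percentile of its array, and a difference is T1 minus T0 on that scale.

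Interferon binding to its receptors activates the kinases JAK1 and TYK2, which phosphorylate STAT proteins. With IRF9 these form the complex that binds the promoters of the interferon-stimulated genes. The products include sensors of viral RNA, transcription factors such as IRF7 that raise interferon production further, ISG15 and its ligases and protease, and effectors that degrade viral RNA, block its translation or trap virions. In blood, several types of white blood cell express these genes, and the genes tend to move together with the interferon tone of an animal.

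The arrays carried 43384 probes, and between 60.4% and 75.4% of their spots (median 68.3%) were well above background. All 431 saturated spots of the series lay on 1 array, that of validation horse 34 after the ride. Validation horse 47 at T0 stood apart from the other T0 horses. Its mean level over 6 markers of immature neutrophils was 0.88, where the other T0 horses of both sets lay below 0 and the T1 horses of the validation set between 0.80 and 3.30. Its mean level over 11 T cell markers was the lowest of the T0 horses at 0.21. The counts of members in the validation set, and the differences of the 10 members given by horse, are also given without it.

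The probes of the 2 members with the largest differences, and overlapping probes of 2 members whose probes differed in the size of the difference, are shown 5′ to 3′ as printed on the array. Positions are those of the array's own annotation, whose file header names EquCab1. No gene model of that build was used, so that exons are not given. Capitals mark the bases that both probes of a pair share. The *HERC5* probe used for the levels is not among those shown, and the 2 that are shown gave differences close to each other.
ISG15: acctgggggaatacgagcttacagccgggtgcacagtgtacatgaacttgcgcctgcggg
IRF7: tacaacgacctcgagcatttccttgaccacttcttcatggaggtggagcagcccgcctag
USP18, brighter probe: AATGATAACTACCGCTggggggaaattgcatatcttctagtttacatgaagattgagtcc
USP18, dimmer probe: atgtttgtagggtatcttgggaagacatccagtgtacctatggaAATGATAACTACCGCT
HERC5, first further probe: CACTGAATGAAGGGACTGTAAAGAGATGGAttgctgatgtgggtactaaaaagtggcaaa
HERC5, second further probe: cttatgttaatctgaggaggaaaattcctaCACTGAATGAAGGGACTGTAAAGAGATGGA

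The *ISG15* probe lay at chrUn:254070794-254070853 and the *IRF7* probe at chrUn:305567879-305567938, both on the minus strand of the unplaced sequence. The brighter *USP18* probe lay at chr6:27334502-27336281, a span of 1780 bases for a probe of 60, so that it joined 2 separate stretches of the genome, and the dimmer one at chr6:27336266-27336841. They shared 16 bases. The further *HERC5* probes lay at chr3:49904993-49905052 and chr3:49904963-49905022 on the plus strand and shared 30 bases.

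The first comparison asked which members changed between T0 and T1 in the same 3 horses. In the experimental set, 10 of the 34 members fell and 0 rose at an adjusted p under 0.05, against 4.18% of all 17489 gene names tested that fell and 6.38% that rose (10.6% in either direction). At an unadjusted p under 0.05 there were 16 members, beside 29.9% of all gene names tested. The 10 were *ISG15*, *IRF7*, *HERC5*, *OAS2*, *IFI44*, *MX1*, *IFI44L*, *USP18*, *XAF1* and *RSAD2*. The median difference over the members was -0.73, beside 0.03 over all gene names tested. On average 28 members were lower at T1, beside 48.7% of all gene names tested. In 15 members all 3 T1 values lay below all 3 T0 values, a pattern shown by 17.9% of the gene names tested. The count rested on the number of horses and on the dim probes left out: it was 1 without horse 2, 4 without horse 32, 9 without horse 41 and 0 when no filter on dim probes was applied.

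The second comparison asked the same of independent horses. There, in the validation set, 20 of the 34 members fell, against 23.9% of all 17401 gene names tested, and *ADAR* rose, against 20.3% (44.2% of gene names in either direction). The median difference over the members was -0.90, beside -0.07 over all gene names tested. All 10 members that fell in the experimental set also fell here, and 4.01% of the 17137 gene names tested in both sets fell in both. Without horse 47 there were again 20 that fell and 1 that rose, with a median of -0.94. The differences of the 10 members given by horse below then ran from -3.44 (*ISG15*) to -1.15 (*IFI35*), with limma adjusted p-values of at most 0.000156. Only *ISG15* had groups that did not overlap, against 0.77% of gene names, and without horse 47 there were 10 such members against 6.31%.

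**Figure D1:**
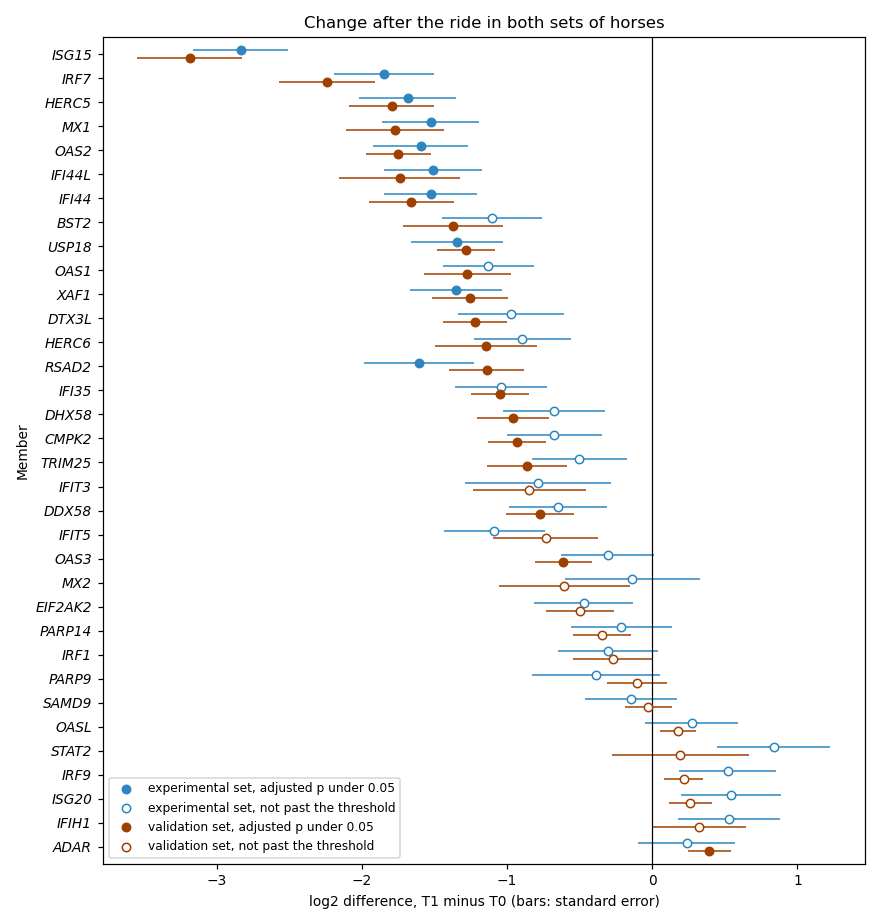
Log2 difference T1 minus T0 (x axis) of the 34 members (y axis), with the experimental set in blue (3 horses, paired) and the validation set in brown (7 horses at T0, 13 at T1). Bars are standard errors of the limma fits and filled points passed an adjusted p of 0.05. *ISG15* lies farthest left in both sets, at -2.83 and -3.18, and *ADAR* is the member with a filled point right of 0.

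The genes of the ISG15 system fell together in the validation set, where 23.9% of all gene names fell. All 5 of *ISG15*, *USP18*, *HERC5*, *HERC6* and *TRIM25* passed the test (median difference -1.28). *ISG15* encodes a ubiquitin-like protein that is conjugated to newly made proteins and also secreted. In the experimental horses its level was 3.43, 3.50 and 4.28 at T0 and 0.24, 0.96 and 1.51 at T1. Among the validation horses it ranged from 2.94 (horse 47) over a median of 4.84 to 5.03 at T0, and from 0.22 over a median of 1.23 to 2.69 at T1. Every T0 horse thus lay above every T1 horse in both sets. *ISG15* was 7.13-fold lower at T1 in the experimental set (log2 difference -2.83, SE 0.33, n = 3 pairs, limma adjusted p = 0.00248) and 9.08-fold lower in the validation set (-3.18, SE 0.36, n = 7 and 13, limma adjusted p = 3.35e-06). Of the 17401 gene names tested in the validation set, 12 including *ISG15* had a fall at least as large.

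*HERC5*, the main ligase that joins ISG15 to its targets in humans, stood at -0.44, -0.40 and -0.19 in the experimental horses at T0 and at -2.62, -1.89 and -1.57 at T1. The validation horses ranged from -0.87 over 0.21 to 1.42 at T0 and from -2.68 over -1.58 to -0.47 at T1. The groups were apart in the experimental set and met through horse 47 and the highest T1 horses in the validation set. The difference was -1.68 (SE 0.33, limma adjusted p = 0.0180) in the experimental set and -1.79 (SE 0.29, limma adjusted p = 7.97e-05) in the validation set. The further *HERC5* probes shown above gave differences of -2.46 and -2.40 in the experimental set and of -2.40 and -2.28 in the validation set.

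*USP18* removes ISG15 from proteins and holds back signalling at the interferon receptor. It lay at -3.82, -3.42 and -3.41 in the experimental horses at T0 and at -4.99, -4.99 and -4.69 at T1. Levels in the validation set ran from -4.50 over -3.46 to -3.16 at T0 and from -5.64 over -4.84 to -4.06 at T1, where the probe was well above background in 11 of 13 horses. Horse 47 was the T0 horse that lay among the T1 horses. The difference was -1.34 (SE 0.32, limma adjusted p = 0.0323) in the experimental set and -1.28 (SE 0.20, limma adjusted p = 5.40e-05) in the validation set. The dimmer *USP18* probe, well above background on 11 of 26 arrays, differed by -3.18 and -2.37. After quantile normalization of normexp-corrected signals the brighter probe differed by -0.41 (limma adjusted p = 0.132) in the experimental set and by -0.39 (limma adjusted p = 6.10e-05) in the validation set.

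*HERC6*, a relative of *HERC5*, and *TRIM25*, a ligase that ubiquitinates the RNA sensor RIG-I, passed the test only in the validation set. The difference of *HERC6* was -0.89 in the experimental set (limma adjusted p = 0.112) and -1.14 in the validation set (limma adjusted p = 0.0112). That of *TRIM25* was -0.50 (limma adjusted p = 0.331) and -0.86 (limma adjusted p = 0.0152). Whether these differences differed between the sets is given with the test of the sets below.

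Among the transcription factors, *IRF7* fell and the other 3 did not pass the test in either set. *IRF7* is the factor that amplifies interferon production once it is induced. In the experimental horses it lay at 3.89, 4.16 and 4.34 at T0 and at 1.79, 2.42 and 2.65 at T1. The validation horses ranged from 3.81 over 5.12 to 5.60 at T0 and from 1.56 over 2.55 to 4.13 at T1. Overlap came from horse 47 at the low end of T0 and from 2 T1 horses. The difference was -1.85 (SE 0.35, limma adjusted p = 0.0153), or 3.60-fold lower, and -2.24 (SE 0.33, limma adjusted p = 2.82e-05), or 4.73-fold lower.

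The remaining transcription factors carry the interferon signal to the promoters. *IRF1* differed by -0.30 and -0.27, *IRF9* by 0.52 and 0.22 and *STAT2* by 0.84 and 0.19. In the experimental set, *IRF9* and *STAT2* were the 2 members whose T1 values all lay above their T0 values, a pattern of 17.6% of gene names. *STAT2* varied widely between horses, with an SD of 1.05 across the T0 horses, which was larger than that of 93.9% of gene names. At T0 in the validation set, 4 horses lay between -0.53 and -0.31 and the other 3 between 1.06 and 2.43, with none in between. At T1 the validation horses ranged from -0.70 to 2.22 around a median of 0.81.

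Of 15 antiviral effectors, 3 fell in the experimental set (*MX1*, *OAS2* and *RSAD2*) and 7 in the validation set, where *OAS1*, *OAS3*, *BST2* and *CMPK2* joined them. Over all gene names tested, 4.18% fell in the experimental set and 23.9% in the validation set. *OAS2* makes 2′-5′ oligoadenylates when it binds double-stranded RNA. Its level was 0.29, 0.48 and 0.54 in the experimental horses at T0 and -1.47, -1.04 and -0.97 at T1. The validation horses ranged from -0.09 over 0.82 to 1.52 at T0 and from -1.59 over -1.002 to 0.02 at T1. Horse 47 was again the T0 horse within the range of T1. The difference was -1.59 (SE 0.33, limma adjusted p = 0.0207) and -1.75 (SE 0.22, limma adjusted p = 8.82e-06).

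*MX1* encodes a dynamin-like GTPase that blocks viruses early in their cycle. It lay at 0.28, 0.40 and 1.62 in the experimental horses at T0 and at -1.46, -1.39 and 0.57 at T1. These groups overlapped, since horse 41 was high at both times, yet each horse was lower at T1, by 1.05 to 1.86 on the log2 scale. The validation horses ranged from 0.49 over 1.45 to 2.29 at T0 and from -1.65 over -0.51 to 0.95 at T1, and the lowest T0 horses, 47 and 18, lay within the range of T1. The difference was -1.53 (SE 0.33, limma adjusted p = 0.0246) and -1.77 (SE 0.34, limma adjusted p = 0.000322). In the experimental set the call was lost without the horse as a block (limma adjusted p = 0.132). *RSAD2*, which encodes viperin, an enzyme that makes a chain terminator of viral RNA synthesis, differed by -1.61 (SE 0.38, limma adjusted p = 0.0324) and -1.14 (SE 0.26, limma adjusted p = 0.00126).

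The differences of the other effectors past the threshold in the validation set were -1.37 for *BST2*, the tetherin that holds virions on the cell, -1.27 for *OAS1*, -0.93 for the nucleotide kinase *CMPK2* and -0.61 for *OAS3*. None of these 4 passed the test in the experimental set, with limma adjusted p-values from 0.0511 (*OAS1*) to 0.556 (*OAS3*). *ADAR*, an enzyme that edits adenosines in double-stranded RNA, rose by 0.39 in the validation set (SE 0.15, limma adjusted p = 0.0346), and it did not pass with sex as a further term, or without any single one of the T0 horses 13, 14, 15, 18 and 29 or the T1 horse 21. The 7 effectors that passed in neither set were *EIF2AK2*, *IFIT3*, *IFIT5*, *ISG20*, *MX2*, *OASL* and *SAMD9*. Their differences in the validation set lay between -0.85 (*IFIT3*) and 0.26 (*ISG20*). *MX2* was well above background in 7 of 13 validation horses at T1, the fewest of any member.

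**Figure D2:**
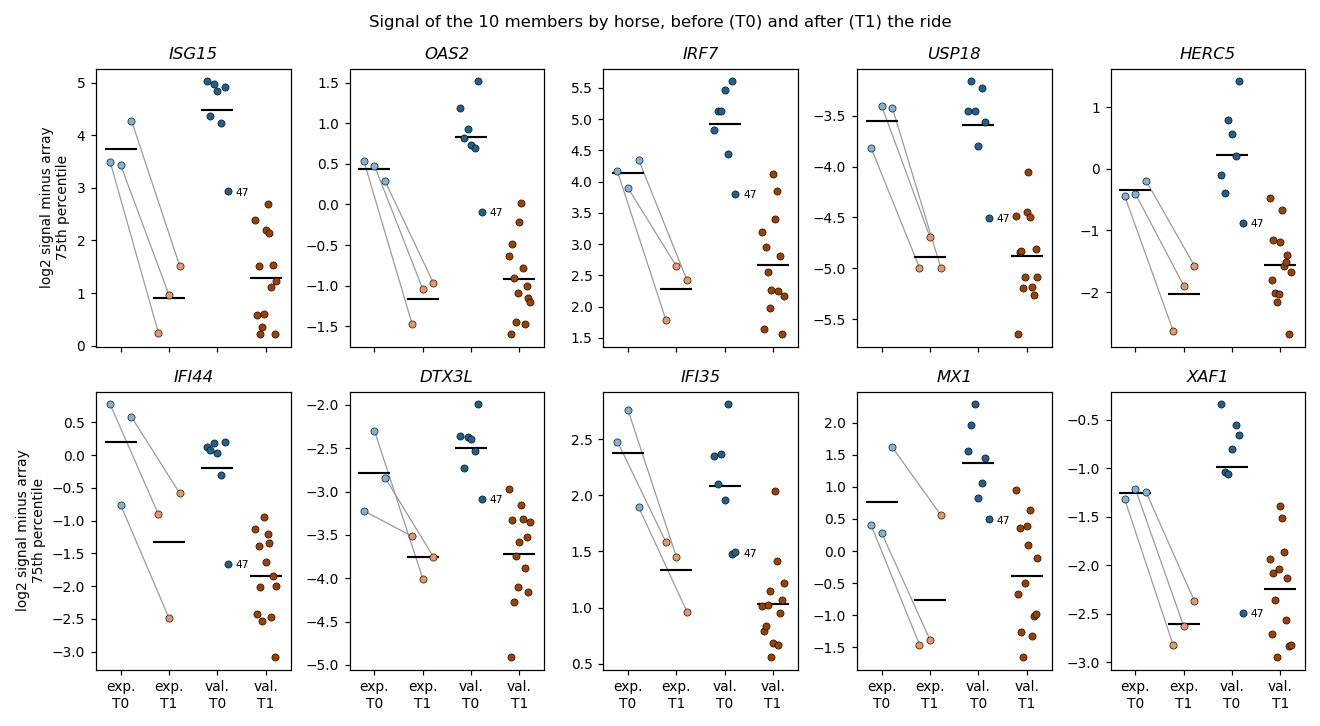
Log2 signal relative to the 75th percentile of the array (y axis) of the 10 members with the smallest adjusted p-values, for each horse (points) in the experimental (exp.) and validation (val.) sets at T0 and T1 (x axis). Black bars are means and grey lines join the T0 and T1 samples of an experimental horse. All grey lines slope down, and validation horse 47 at T0, marked by its number, lies at or near the level of the T1 horses in most panels.

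The RNA sensors include RIG-I (*DDX58*) and MDA5 (*IFIH1*), which bind viral RNA, and their regulator LGP2 (*DHX58*). None passed the test in the experimental set. Among the validation horses *DHX58* fell by 0.96 (limma adjusted p = 0.0036) and *DDX58* by 0.77 (limma adjusted p = 0.0104). *IFIH1* differed by 0.33 and did not pass (limma adjusted p = 0.435).

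The other induced genes, all 7 of them, were lower at T1 on average in both sets. The median difference over all gene names tested was 0.03 in the experimental set and -0.07 in the validation set. Of the 7, 3 passed the test in the experimental set and 5 in the validation set. The shares of all gene names tested that fell were 4.18% and 23.9%. *IFI44* and its neighbour *IFI44L* encode related cytoplasmic proteins. *IFI44* lay at -0.77, 0.59 and 0.78 in the experimental horses at T0 and at -2.49, -0.91 and -0.58 at T1. These groups overlapped through horse 32, in which *IFI44* was low at both times, and it was lower at T1 in 3 of 3 horses. The validation horses ranged from -1.66 over 0.08 to 0.21 at T0 and from -3.08 over -1.85 to -0.94 at T1. The difference was -1.53 (SE 0.32, limma adjusted p = 0.0227) and -1.66 (SE 0.29, limma adjusted p = 0.000143), and in the experimental set it did not pass without the horse as a block (limma adjusted p = 0.124). *IFI44L* differed by -1.51 (limma adjusted p = 0.0273) and -1.74 (limma adjusted p = 0.00205).

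*XAF1* encodes a partner of the apoptosis inhibitor XIAP. It lay at -1.32, -1.24 and -1.21 in the experimental horses at T0 and at -2.82, -2.63 and -2.37 at T1. Levels in the validation set ran from -2.49 over -0.80 to -0.34 at T0 and from -2.95 over -2.13 to -1.38 at T1, with horse 47 the T0 horse that overlapped. The difference was -1.35 (SE 0.32, limma adjusted p = 0.0316) and -1.26 (SE 0.26, limma adjusted p = 0.00064).

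*DTX3L*, a ubiquitin ligase that works in a complex with *PARP9*, and *IFI35* passed the test only in the validation set. *DTX3L* lay at -3.22, -2.84 and -2.30 in the experimental horses at T0 and at -4.004, -3.75 and -3.52 at T1, a difference of -0.97 (SE 0.36, limma adjusted p = 0.113). Among the validation horses it ranged from -3.08 over -2.39 to -1.99 at T0 and from -4.91 over -3.59 to -2.97 at T1, a difference of -1.22 (SE 0.22, limma adjusted p = 0.000185). Horse 47 was the T0 horse below the highest T1 value. The call in the validation set held at a smaller difference of -0.51 (limma adjusted p = 0.00112) after quantile normalization of normexp-corrected signals.

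*IFI35* lay at 1.89, 2.48 and 2.76 in the experimental horses at T0 and at 0.96, 1.45 and 1.59 at T1, a difference of -1.04 (SE 0.32, limma adjusted p = 0.0663). Levels in the validation set ran from 1.48 over 2.11 to 2.81 at T0 and from 0.56 over 1.01 to 2.04 at T1, a difference of -1.05 (SE 0.20, limma adjusted p = 0.000264). The experimental groups did not overlap, and the validation groups did. *PARP9* and *PARP14*, ADP-ribosyltransferase relatives that lie beside *DTX3L*, differed by -0.10 and -0.35 in the validation set and did not pass the test in either set.

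Probes of a member did not always move alike. Of the 34 members, 20 had more than 1 probe over all their gene names, and in 4 of these (*OAS3*, *OASL*, *SAMD9* and *STAT2*) the probes differed in direction in the validation set. The second gene name that the additional tables give as *OAS3* was the brighter of both and differed by 1.44 (limma adjusted p = 0.0542) in the experimental set and by 1.52 in the validation set (limma adjusted p = 0.000785), where the probe named *OAS3* fell. The second gene name of *SAMD9*, also the brighter one, differed by 0.97 and 0.73 (limma adjusted p = 0.075 and 0.00122). With these brighter gene names, 19 members fell and 3 rose in the validation set, a count made after seeing the data. A dimmer *OASL* probe next to the one used differed by -0.44 and -0.72, against 0.27 and 0.18. *IFIT5* had a dimmer second gene name that fell in both sets, by 2.65 (limma adjusted p = 0.00396) and by 1.63 (limma adjusted p = 0.0162), while the brighter one did not pass (limma adjusted p = 0.0767 and 0.108). Of the 3 *STAT2* probes, 1 differed by -0.25 in the validation set, against 0.19 for the probe used. The dimmer *TRIM25* probe differed by 0.68 in the experimental set, against -0.50 for the probe used, and by -0.62 in the validation set. The direction of *OAS3*, *OASL*, *SAMD9*, *STAT2* and, in the experimental set, *TRIM25*, and the call of *IFIT5* therefore depended on the probe, and which probe tracks the transcript was not tested.

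The changes of the members were not shown to differ between the sets. The difference of the differences was called for 0 of the 34 members and for 0 of 19406 gene names in a limma fit of all 26 arrays (0% of gene names). At an unadjusted p under 0.05 there were 0 members and 160 gene names. *ISG15* differed by a further -0.35 in the validation set (SE 0.72) and *IRF7* by a further -0.39 (SE 0.64). The fit's consensus correlation between arrays of the same horse was -0.0708, so that it gained no precision from the pairs.

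Arrays were scanned on 8 days and lay on 18 slides. On each of the 5 scan days that held validation horses of both times, the median difference over the members lay between -1.11 and -0.69. The difference of *ISG15* ranged from -3.98 to -2.05 over these days. On the 3 slides that held both times the median lay between -0.97 and -0.77 and *ISG15* between -3.31 and -2.34. On the slide that held horse 47, 7 of the 10 members that fell in both sets were lower at T1. There *IFI44* (0.72), *IFI44L* (1.12) and *XAF1* (0.45) were higher at T1. In the experimental set, the T0 and T1 arrays of each horse were scanned on different days.

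Outside the members, most further interferon-stimulated genes were lower as well. Of 60 listed, 42 were tested in each set, 14 fell and 3 rose in the experimental set and 26 fell and 3 rose in the validation set, with medians of -1.03 and -0.92. Among all gene names tested, 4.18% fell and 6.38% rose in the experimental set, and 23.9% fell and 20.3% rose in the validation set. The smallest adjusted p-values among those that fell were those of the immunoproteasome subunit *PSMB10* (-1.20), the guanylate-binding protein *GBP2* (-2.47) and *IDO1*, which degrades tryptophan (-2.22, all in the validation set). *PLSCR1*, a phospholipid scramblase, rose in both sets, by 2.52 (limma adjusted p = 0.00445) and 1.82 (limma adjusted p = 2.43e-05), and *NT5C3A*, a nucleotidase, rose by 1.25 (limma adjusted p = 0.049) and 1.06 (limma adjusted p = 0.000262).

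The genes upstream of the members moved in other directions. Of 9 interferon ligands listed, 5 had a gene name on the array, 2 were well above background on 3 or more arrays and 0 were bright enough to be tested in either set. Of 8 receptor and kinase genes tested, 0 passed in the experimental set and 7 rose in the validation set, among them the type I receptor chain *IFNAR1* (1.31, limma adjusted p = 0.000648), *IL10RB* (0.83) and *JAK2* (0.51). *IFNAR2*, the other type I chain, differed by -0.27 (limma adjusted p = 0.228). Of the 16 STAT and IRF factors and adaptors, 2 fell in the experimental set and 6 fell and 3 rose in the validation set. The shares of all gene names were 4.18% that fell in the experimental set, and 23.9% that fell and 20.3% that rose in the validation set. *TMEM173*, which encodes the DNA-sensing adaptor STING, fell by 1.80 (limma adjusted p = 0.0378) and by 1.89 (limma adjusted p = 0.0007). *TICAM1*, the adaptor of TLR3, fell by 1.21 and 1.18. *IRAK4*, *IRF2* and *STAT3* rose in the validation set by 1.10, 0.98 and 0.87.

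Among the 4 receptors of nucleic acids in endosomes, *TLR3* fell by 1.67 and 2.43 and *TLR8* rose by 1.52 and 1.25, past the threshold in both sets. *TLR3* was dim, with mean levels of -4.92 and -4.11 at T0 and of -6.59 and -6.55 at T1. The size of its fall is therefore uncertain. *TLR7* and *TLR9*, which plasmacytoid dendritic cells use, did not pass in either set. Of 4 negative regulators, *SOCS3*, an inhibitor of JAK kinases, rose in both sets (2.33 and 1.76) and *PIAS1* in the validation set (0.66).

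Markers of blood cell types also changed, the lymphoid and plasmacytoid lists being lower on median and the myeloid lists higher. In the validation set 10 of 11 T cell markers, 6 of 7 B cell markers and 4 of 7 NK cell markers fell, with medians of -1.44, -1.41 and -0.93. The NK cell marker *NCR1* rose there by 1.34 (limma adjusted p = 0.000244). Of 4 plasmacytoid dendritic cell markers on the array out of 8 listed, *GZMB* (-2.24) and *SPIB* (-1.83) fell there, and the median was -1.13. Markers of neutrophils (5 of 7), immature neutrophils (5 of 6) and monocytes (4 of 7) rose, with medians of 1.05, 3.23 and 1.61. In that set 23.9% of all gene names fell and 20.3% rose. The log2 summed level of the T cell list ranged from 4.78 to 6.03 at T0 and from 4.16 to 5.01 at T1 in the validation set, and that of the immature neutrophil list from 2.60 to 7.68 and from 6.93 to 8.90. In whole blood, fewer cells of a type and less RNA per cell cannot be told apart, and the part of these cell types in the changes of the members was not tested. Among the lymphoid and plasmacytoid markers the largest falls were -2.24 for *GZMB*, -1.99 for *CD79B* and -1.98 for *NKG7*. The differences of the members in the same set began at -3.18 (*ISG15*) and -2.24 (*IRF7*), with a median of -0.90. These are the extremes of each list, and how the falls of markers and members relate was not tested.

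**Figure D3:**
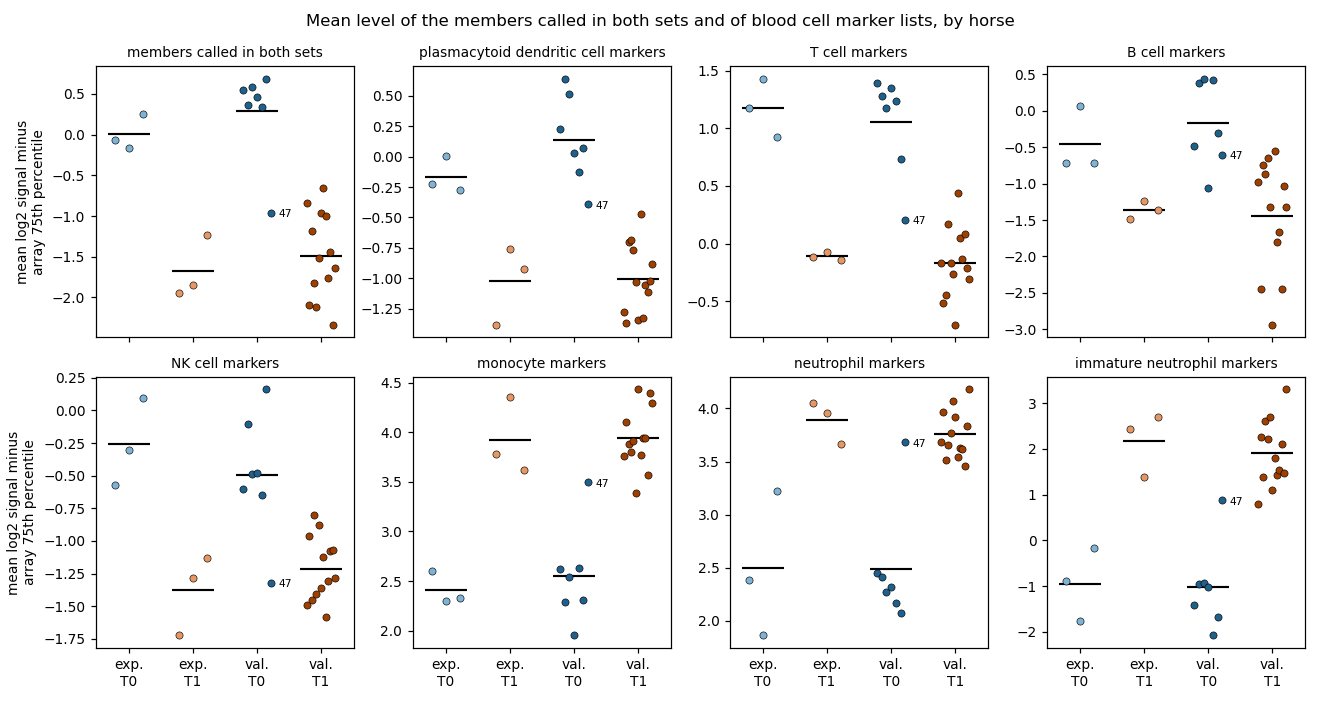
Mean log2 signal relative to the 75th percentile of the array (y axis) over the 10 members that fell in both sets and over 7 lists of blood cell markers, for each horse (points) by set and time (x axis). Black bars are means. The members and the lymphoid lists are lower at T1 and the myeloid lists higher, and horse 47 at T0 lies nearest to the T1 horses in most panels.

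Members also varied between horses at one time point, and those that fell in both sets varied together. Across the 10 T0 horses, with each set's mean removed, the median Pearson correlation between pairs of members was 0.12, beside 0.02 between all gene names tested. Across the 16 T1 horses it was 0.27, beside 0.03. Between pairs of the 10 members that fell in both sets it was 0.65 at each time, and between the other 24 members it was 0.02 at T0 and 0.20 at T1. These 10 were chosen by limma p-values from the same arrays, which set the change against the variation within a time. The choice was therefore not independent of that variation. The horses also share the arrays' scaling, which acts on every gene name. At T0 the value rested on horse 47, without which it was 0.11, and at T1 it lay between 0.60 and 0.68 without any single horse.

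The members with the closest relation to the mean of the other members at T1 were *ISG15* (r = 0.91, rho = 0.90) and *DDX58* (r = 0.90, rho = 0.91), followed by *HERC5* (r = 0.87, rho = 0.83) and *IFIT5* (r = 0.86, rho = 0.83), over 16 horses. Without the 2 horses farthest from the median of that mean, r was 0.86, 0.83, 0.78 and 0.78. At T0, over 10 horses, *USP18* (r = 0.82, rho = 0.44), *XAF1* (r = 0.81, rho = 0.33) and *ISG15* (r = 0.81, rho = 0.42) led, and without the 2 farthest horses their r was -0.04, -0.06 and 0.10. The relation at T0 thus rested on those horses for these 3 members, while *HERC5* kept an r of 0.57 and *OAS2* of 0.50. *IFIH1* (r = -0.57) and *OASL* (r = -0.42) ran against the mean of the others at T1.

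**Figure D4:**
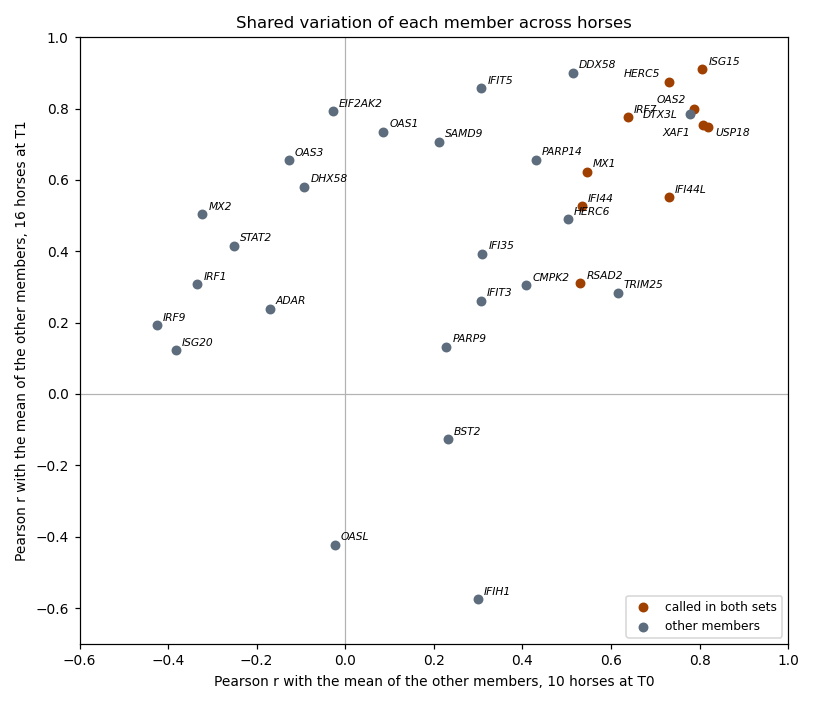
Pearson correlation of each of the 34 members with the mean of the other members across 10 horses at T0 (x axis) and across 16 horses at T1 (y axis), each set's mean removed. Brown points are the 10 members that fell in both sets, which lie in the upper right part, and grey points are the other 24, of which *IFIH1* and *OASL* lie lowest.

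Several members lie beside each other on a chromosome, and their relation across horses was not the same from pair to pair. The *HERC5* and *HERC6* probes on chromosome 3 had an r of 0.80 at T0 (rho = 0.79) and 0.73 at T1 (rho = 0.71), and 0.63 and 0.70 without the 2 horses farthest from the median of *HERC5*. *IFI44* and *IFI44L* on chromosome 5 had 0.93 at T0 (rho = 0.60) and 0.79 at T1 (rho = 0.84), and 0.19 and 0.72 without the 2 farthest, so that their r at T0 rested on those horses. *OAS1* and *OAS2* on chromosome 8 had 0.44 (rho = 0.65) and 0.79 (rho = 0.71), and 0.65 and 0.60 without the 2 farthest. In contrast, *MX1* and *MX2* on chromosome 26 had 0.16 and 0.11 (rho = 0.14 and -0.02), and *IFIT3* and *IFIT5* on chromosome 1 had 0.06 and 0.03 (rho = 0.07 and -0.12). These are descriptions over 10 and 16 horses.

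*MX1*, a common reporter of interferon activity, was also compared with every gene name across horses. No gene name passed an adjusted p of 0.05 at either time (0 of 19405, or 0%, in an exact permutation test within sets at T0 and in a permutation test with 100000 resamples at T1, both two-sided). At an unadjusted p under 0.05 there were 2 of 33 members at T0 against 3.54% of gene names, and 13 of 33 at T1 against 2.9%. The closest at T1 was *ISG15*, with r = 0.79 (permutation p = 0.00062) and rho = 0.74 (permutation p = 0.00146) over 16 horses, adjusted p = 0.988 over all gene names, and r = 0.71 without the 2 horses farthest from the median of *MX1*. At T0 *ISG15* had r = 0.68 (exact permutation p = 0.0339) and rho = 0.75 (exact permutation p = 0.0232) over 10 horses, adjusted p = 0.995, and r = 0.64 without the 2 farthest.

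Outside the members, the named gene names closest to the members' mean across the 10 T0 horses were *ZNF391* (r = 0.99), *FANCI* (r = 0.98), *EXD3* (r = 0.97), *FBXO32* (r = 0.95) and *WDR76* (r = 0.94), with rho between 0.77 and 0.92. Across the 16 T1 horses they were *GPAM* (r = 0.80), *IFI6* (r = 0.78), *IDO1* (r = 0.78), *DNAH12* (r = 0.78) and *ORC6* (r = 0.77), with rho between 0.61 and 0.82. No gene name was in both groups of 5. The r at T0 are not given without horse 47, whose mean over the members was -0.30, the lowest of the T0 horses. How far these r rest on that horse was not tested. *IFI6* and *IDO1* are themselves induced by interferon, and both fell in both sets. Members and gene names without a gene symbol were passed over, so that these ranked 1 to 7 at T0 and 13 to 22 at T1 among all 19406, and they are given as a description.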

How the data were processed

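Whole-blood RNA of 23 horses was measured on 26 Agilent arrays of 1 colour. The deposited scanner files hold an intensity per spot that the authors made with Agilent's Feature Extraction (10.7.3.1), which subtracted background without scaling arrays to each other. A deposited table of log2 values served as an alternative. On each array it ranks the spots exactly as the median signal less the local background does (Spearman r of 1), with nearly equal quantiles across arrays, and its normalization method is not given in the sources used here. Control spots and 386 outlier spots were left out. The log2 processed signal minus each array's 75th percentile was used, with the brightest probe per gene name.

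Gene names well above background on at least 3 of 6 experimental or 7 of 20 validation arrays were tested with limma 3.58.1 in R 4.3.3, with Benjamini-Hochberg adjustment over all gene names and a threshold of 0.05. The experimental set had the horse as a fixed block, since the labels give each pair 1 animal. As a check of this pairing, deviations from the group means at both times were correlated, with r of -0.00866, 0.213 and 0.191 in horses 2, 32 and 41. The validation set had no block, and the sets were compared in 1 fit of all 26 arrays, the horse being a random block. Correlations were computed in Python 3.11.15 with numpy 2.4.6, and each test was tried on simulated data. The number of arrays limits the precision.

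All members are named. Values per horse are given for the 10 members with the smallest adjusted p-values, up to 3 further genes are named per list and direction, and the 5 closest gene names outside the members at each time. The members and lists were chosen with earlier results of these data known. The alternatives were other normalizations, filters and probe rules, scan day, slide, sex, the block, and each horse left out.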

Additional observations from a re-analysis of the deposited data

Results flagged for a closer look

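In the validation horses at T0, 5 of 34 members had 1 horse whose gap to its nearest neighbour was above Dixon's critical share of the group's range, which is 0.568 for 7 horses. Chance flags about 1 in 20 groups. The share of all gene names that the same rule flags was not computed, so the count is not a result about the members. Horse 47 was the lowest for 4 of them, *IFI44L* (0.834 of the range), *IFI44* (0.729), *XAF1* (0.665) and *ISG15* (0.623). The levels of these 4 members in horse 47 were -3.38, -1.66, -2.49 and 2.94, and the nearest T0 horse of the set lay at -1.18, -0.30, -1.06 and 4.24. Horse 29 was the highest for *CMPK2* (0.591), at 2.03 against 0.81 in the next horse. No member was shown to differ between the sets in its change.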

How the results depend on the processing

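The medians and the differences of the 10 members given by horse kept their direction under every alternative run, whereas *OAS3* and *SAMD9* were higher at T1 in the validation set with the brighter gene name (1.52 and 0.73). In the experimental set 10 members fell, 0 by limma without a filter on dim probes (15 at an unadjusted p under 0.05, beside 18.03% of all gene names, lowest adjusted p 0.0561) and between 1 and 9 without 1 horse, and between 8 and 14 under the other alternatives. Without the replicate block, that is without pairing the arrays of a horse, 8 fell and the calls of *MX1* and *IFI44* were lost. The median difference of the experimental members (-0.73) was -0.55 with normexp and quantile normalization, -0.90 with quantile normalization, -0.58 with the series values, -0.82 with the mean of the probes and between -0.82 and -0.72 without 1 horse. In the validation set between 18 and 21 members fell under every alternative run, and the median (-0.90) was -0.48 with normexp and quantile normalization, -0.49 with the series values and between -0.97 and -0.82 without 1 horse. The 1 member that rose there was 0 without a filter, 0 with sex as a further term, between 0 and 2 without 1 horse, and 3 with the brightest gene name of each symbol, an alternative chosen after seeing the data. The median r between members lay between 0.05 and 0.15 at T0 and between 0.22 and 0.30 at T1 without 1 horse, and that between the 10 members that fell in both sets between 0.11 and 0.71 at T0 and between 0.60 and 0.68 at T1. Of the 10 members given by horse, each kept its side of the threshold in the validation set under every alternative run. Slide as a random block could not be fitted in the experimental set, where 1 slide held 2 arrays and the others 1 each. Without horse 34 at T1, 20 members fell in the validation set. The cause of these shifts was not tested.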
